A study of Mus musculus with 6 samples.

Results

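The genes described here are the 7 that encode the pore-forming effectors of mitochondrial apoptosis, Bax, Bak1 and Bok, and the guardians that hold them in check, Bcl2, Bcl2l1 (which encodes BCL-XL), Bcl2l2 (BCL-W) and Mcl1. They were taken by symbol from the deposited expression table, where 7 of 54532 genes carried these symbols. All 7 were among the 12098 genes tested, whose mean over the 6 libraries was 1 FPKM or more (FPKM is a level corrected for exon length and for the size of the library). One effector, Bok, fell when Mettl3 was knocked down, to 7.35 ± 0.570 FPKM in shMettl3_dox cells, against 10.6 ± 0.316 FPKM in shLuc_dox cells (SD, n = 3 each). The effector Bak1 and the guardians Bcl2l1 and Bcl2 rose by between 1.21-fold and 1.31-fold. These 3 calls were all lost with no filter on low values, and at most 2 of them held when 1 library was left out. The most abundant effector, Bax, and the most abundant guardian, Mcl1, did not pass the test, which 28.1% of all tested genes passed.

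BAX and BAK1 lie dormant in healthy cells, BAX mostly in the cytosol and BAK1 in the mitochondrial outer membrane, until BH3-only proteins set them free to assemble into pores. The pores release cytochrome c, which drives the apoptosome and the caspases. BCL2, BCL-XL, BCL-W and MCL1 bind BH3-only proteins and activated effectors and so block the pores, and MCL1 is known for its very short half-life. BOK is an effector that the guardians hardly hold, and its protein level is kept low by degradation at the endoplasmic reticulum. DNA damage acts on the balance mainly through p53, whose textbook targets include Bax and the BH3-only genes Bbc3 and Pmaip1.

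Total RNA was sequenced from mouse embryonic fibroblasts that express E1A and HRasV12, a pair of oncogenes that transform primary fibroblasts and make them prone to apoptosis after DNA damage. The shMettl3_dox group carried a short hairpin RNA against Mettl3, the enzyme that puts m6A, the commonest internal methyl mark of mRNA, onto transcripts, and the shLuc_dox group carried a control hairpin named shLuc. There were 3 libraries in each group, and both groups were treated with 0.2 ug/ml doxorubicin, a drug that breaks DNA through topoisomerase, for 6 hours. The stated aim was to find genes that fall with Mettl3 knockdown under DNA damage. Because every library was treated with the drug, no value here is a response to doxorubicin. The Mettl3 columns of one deposited table carry the number 2, and the labels name no further hairpin, so a single one stands for the knockdown. The labels do not say whether the libraries of a group came from separate cultures, so a p-value here weighs a difference against the spread between these libraries alone. These are bulk libraries, in which fewer cells of a kind and less RNA per cell cannot be told apart.

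The knockdown was visible in the targeted gene. Mettl3 (ENSMUSG00000022160, chromosome 14) had 1.29, 1.53 and 1.65 FPKM in shMettl3_dox cells, against 2.47, 3.14 and 2.59 FPKM in shLuc_dox cells. It fell by 0.58 on the log2(FPKM + 1) scale (SE 0.108, limma adjusted p = 0.00861), to 0.545 of the shLuc_dox mean in FPKM. On the opposite strand Tox4 shares 18.4% of the exon bases of Mettl3, and it had 9.57 to 10.2 FPKM in shMettl3_dox cells and 9.64 to 10.0 FPKM in shLuc_dox cells. Between 17652955 and 25464039 reads per library could be recovered in shMettl3_dox and between 17001639 and 20132541 in shLuc_dox. Of 10 fibroblast markers 5 reached a mean of 1 FPKM (Vim, Fn1, Col5a1, Pdgfrb and Pdgfra), while the collagens Col1a1, Col1a2 and Col3a1 stayed under it and Thy1 and Lum were close to 0. The epithelial keratin gene Krt18 was at 29.1 FPKM in shMettl3_dox and 46.2 FPKM in shLuc_dox, and Epcam at 2.66 FPKM in shMettl3_dox and 4.14 FPKM in shLuc_dox. The macrophage gene Cd68 was at 10.1 FPKM in shMettl3_dox and 16.8 FPKM in shLuc_dox, while Ptprc and Tyrobp, which mark blood cells, were at or near 0. Of 8 epithelial markers 3 reached 1 FPKM, Krt14 was at 0 in all libraries, and the sum ranged from 36.4 to 42.4 FPKM in shMettl3_dox and from 58.4 to 61.6 FPKM in shLuc_dox. Summed over the 10 fibroblast markers, the level was 795 to 865 FPKM in shMettl3_dox and 908 to 960 FPKM in shLuc_dox. Vim, the most abundant, was at 703 FPKM in shMettl3_dox and 818 FPKM in shLuc_dox, and without it the sum was 117 to 123 FPKM in shMettl3_dox and 111 to 113 FPKM in shLuc_dox. Of the macrophage and endothelial lists, of 8 genes each, only Cd68 and Egfl7 reached 1 FPKM. The macrophage list summed to 9.56 to 11.6 FPKM in shMettl3_dox and 15.5 to 18.2 FPKM in shLuc_dox, and the endothelial list to 4.55 to 6.09 FPKM in shMettl3_dox and 5.62 to 6.19 FPKM in shLuc_dox. Their part in the results on the effectors and guardians was not tested.

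METTL3 methylates adenosine within a short sequence context whose most favoured form reads GGACT in DNA letters. The 25 bases around the GGACT nearest to the end of the coding sequence, taken within 1 exon, are shown for each gene, read 5′ to 3′ along the mRNA, with the motif in capitals, so that the sequences that could carry the mark stand beside the levels. They come from the GENCODE M21 transcripts on GRCm38.
Bax: ccactgccttGGACTgtgtcttttc
Bak1: gtgcctggctGGACTaaacctctct
Bok: ggctagcggtGGACTgtgtccggca
Mcl1: gtgcaataggGGACTcttaaagctc
Bcl2l1: gaagagaataGGACTgaggccccag
Bcl2l2: tttggtagttGGACTtgcctgtcac
Bcl2: ggtcttccatGGACTggagaaggga

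The windows of Bax (chr7:45461831-45461855, minus strand), Bak1 (chr17:27020874-27020898, minus strand), Mcl1 (chr3:95660832-95660856, plus strand), Bcl2l2 (chr14:54886329-54886353, plus strand) and Bcl2 (chr1:106542701-106542725, minus strand) lie in the 3′ UTR. Those of Bok (chr1:93694105-93694129, plus strand) and Bcl2l1 (chr2:152829876-152829900, minus strand) lie in the coding sequence. The motif begins 20 bases past the last coding base in Bax, 22 in Mcl1, 46 in Bak1, 552 in Bcl2 and 809 in Bcl2l2, while, counted from that base, it begins at -231 in Bok and at -598 in Bcl2l1. Searched on the mRNA strand only, the motif occurs 3 times in the Bax transcript, 4 times in Bak1, 3 times in Bok, 8 times in Mcl1, 3 times in Bcl2l1, 3 times in Bcl2l2 and 9 times in Bcl2. Per kilobase this is 3.46 in Bax, 2.34 in Mcl1, 2.04 in Bok, 1.68 in Bak1, 1.25 in Bcl2, 1.17 in Bcl2l1 and 0.855 in Bcl2l2. Over 10650 tested protein-coding genes, 92.0% held at least 1 GGACT, with a median of 3 per transcript and 1.05 per kilobase. The genes densest in the motif were Bax and Mcl1, which did not pass the test for a change in level, and Bok, which fell. A match is a description of the letters and not a methylated site, and m6A was not measured in these files.

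All 7 genes were found in the RefSeq table of promoters (GRCm38.p6), with 9 windows of 300 bases because Bcl2l1 has 3. The 250 bases before the start that RefSeq gives are printed for Bax, the textbook p53 target whose level overlapped between groups, and for Bok, the gene that fell. Capitals mark the single p53 decamer (the 10-base element of which p53 sites are built) in Bax and the single GC box in Bok.
Bax: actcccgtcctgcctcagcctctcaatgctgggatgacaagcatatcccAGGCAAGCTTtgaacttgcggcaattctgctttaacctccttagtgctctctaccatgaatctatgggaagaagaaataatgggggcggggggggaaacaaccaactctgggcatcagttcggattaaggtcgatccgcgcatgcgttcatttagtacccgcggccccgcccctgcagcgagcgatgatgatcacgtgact
Bok: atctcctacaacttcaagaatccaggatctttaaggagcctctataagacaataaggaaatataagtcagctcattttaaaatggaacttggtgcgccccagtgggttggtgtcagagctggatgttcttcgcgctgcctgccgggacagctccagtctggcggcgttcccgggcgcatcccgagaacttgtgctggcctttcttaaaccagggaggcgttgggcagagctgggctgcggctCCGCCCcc

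The Bax stretch is chr7:45466899-45467148 on the minus strand and the Bok stretch chr1:93685325-93685574 on the plus strand, both read towards the gene. For Bok the RefSeq start lies upstream of the GENCODE gene start given with its values. The decamer begins 201 bases before the Bax start, and a p53 decamer was present in 8.4% of 32851 promoter windows and, of the 9 windows of the 7 genes, only in that of Bax. The GC box GGGCGG, searched on both strands, was present in 35.7% of all windows. It occurred 7 times in the Bcl2 window, 3 times in Bax, and once each in Bok, Mcl1 and Bcl2l2. Neither Bak1 nor Bcl2l1, which both rose, held one in any window, whereas Bcl2, which also rose, held the most. The Bak1 window (chr17:27028578-27028877) lies within the GENCODE gene span given with its values. Absence of a match says only that these letters are not in the window.

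Levels spanned a wide range, and the order was the same in all 6 libraries: Bax, Mcl1, Bcl2l1, Bak1, Bok, Bcl2l2 and Bcl2, from highest to lowest FPKM. The Bax mean stood above 98.2% of the tested genes and the Mcl1 mean above 96.1%, whereas the Bcl2 mean stood above 12.9%. In shMettl3_dox cells the ranges of Bok (6.88 to 7.98 FPKM) and Bcl2l2 (6.54 to 7.14 FPKM) overlapped, although Bok was the higher of the pair within each library. In shLuc_dox cells Bok (10.3 to 10.9 FPKM) stood clear of Bcl2l2 (6.90 to 7.45 FPKM). No other neighbours in the order overlapped in either group. Gene-level values do not separate splice forms, such as the long and short forms of Bcl2l1 and Mcl1.

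**Figure D1:**
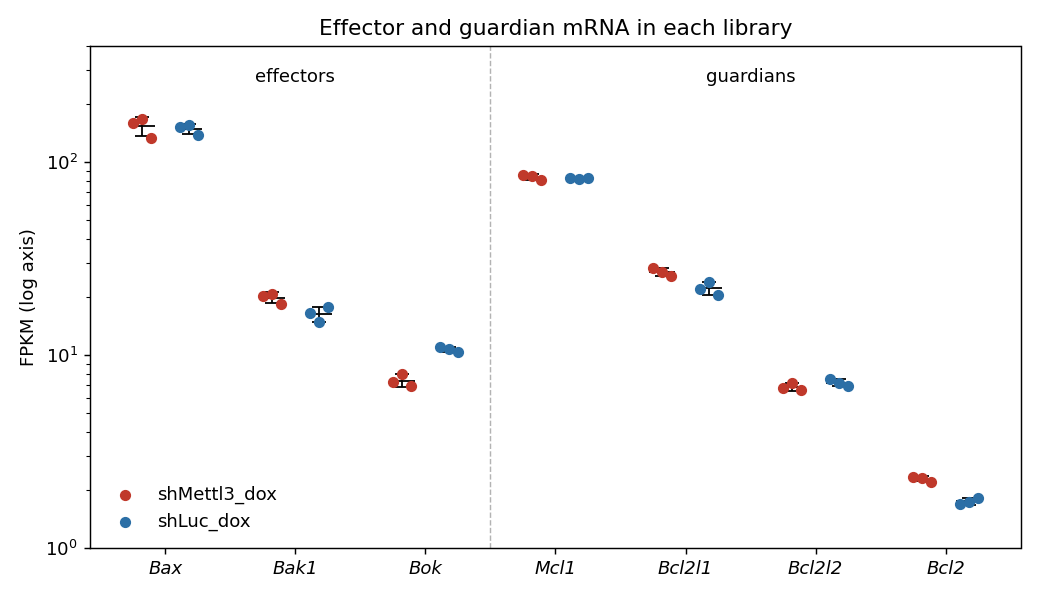
FPKM of the 7 genes in each library on a log axis, with shMettl3_dox (red) left of shLuc_dox (blue); points are single libraries, and the long and short bars are the mean and SD of 3 libraries. The groups stand apart for Bok, which is lower in shMettl3_dox, and for Bak1, Bcl2l1 and Bcl2, which are higher, while Bax, Mcl1 and Bcl2l2 overlap.

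Of the 7 genes, 1 fell (Bok), 3 rose (Bak1, Bcl2l1 and Bcl2) and 3 did not pass (Bax, Mcl1 and Bcl2l2), by limma on log2(FPKM + 1) with an adjusted p under 0.05 over all genes tested. Over all 12098 genes 28.1% passed, 13.5% lower and 14.6% higher in shMettl3_dox. The counts were the same with edgeR and with DESeq2 on recovered reads, where 33.3% (16.9% higher, 16.3% lower) and 32.1% (15.6% higher, 16.5% lower) of all genes passed. The count higher depended on other settings: it was 0 with no filter on low values, 1 with a filter at 0.1 FPKM or with the replicate block, 2 without the trend or with median-ratio scaling, and 0 to 2 without 1 library. The count lower was 1 in each of these. The values of the groups did not overlap for 4 of the 7 genes, nor for 45.1% of all genes. The median change of the 7 was 0.04 on the log2(FPKM + 1) scale, and that of all genes 0.01. With only 7 genes and no test of them as a set, the counts cannot say whether they differ from the rest.

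Among the effectors, Bax (ENSMUSG00000003873, chr7:45461697-45466898, minus strand) had 159, 167 and 134 FPKM in shMettl3_dox cells, against 152, 155 and 138 FPKM in shLuc_dox cells. The groups overlapped, and replicate 3 was the lowest in both. Its change was 0.04 on the log2(FPKM + 1) scale (SE 0.0892, 95% interval -0.17 to 0.25, limma adjusted p = 0.778), on 3668 to 6330 reads per library. Without shMettl3_dox replicate 3 the change was 0.13 (limma adjusted p = 0.131).

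Bak1 (ENSMUSG00000057789, chr17:27019810-27029009, minus strand), the effector anchored in the outer membrane, had 20.2, 20.8 and 18.4 FPKM in shMettl3_dox cells, against 16.6, 14.8 and 17.6 FPKM in shLuc_dox cells. Every shMettl3_dox library was above every shLuc_dox library, but shMettl3_dox replicate 3 and shLuc_dox replicate 3 lay close together. Bak1 rose by 0.27 (SE 0.0746, 95% interval 0.09 to 0.44, limma adjusted p = 0.0371), which is 1.21-fold in FPKM, and edgeR gave 0.28 (adjusted p = 0.0170). The call was lost without shMettl3_dox replicate 1 (adjusted p = 0.106) or 2 (0.102), and without shLuc_dox replicate 1 (0.0862) or 2 (0.0986). Ggnbp1, on the opposite strand, shares 437 exon bases with Bak1 (18.2% of them) and had 0.543 to 0.777 FPKM in shMettl3_dox and 0.805 to 0.852 FPKM in shLuc_dox.

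Bok (ENSMUSG00000026278, chr1:93685660-93695764, plus strand), the effector least restrained by the guardians, had 7.20, 7.98 and 6.88 FPKM in shMettl3_dox cells, against 10.9, 10.7 and 10.3 FPKM in shLuc_dox cells. The highest shMettl3_dox library was well under the lowest shLuc_dox library. Bok fell by 0.48 (SE 0.0614, limma adjusted p = 0.00221), to 0.691 of the shLuc_dox mean, and 7.89% of the tested genes had a larger change in either direction. edgeR on recovered reads, which adds no pseudocount of 1 FPKM, gave -0.54 (adjusted p = 0.00102), from 255 to 395 reads per library. Its call held when any 1 library was left out, with changes of -0.53 to -0.44 and limma adjusted p of 0.00334 to 0.0128. Of the 7 genes only Bok is in the authors' deposited table of genes lower in shMettl3_dox, with a log2 fold change of -0.53 and an adjusted p of 0.000807 there. In the authors' deposited table its normalized counts were 257, 285 and 246 in shMettl3_dox and 390, 380 and 367 in shLuc_dox.

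Among the guardians, Mcl1 (ENSMUSG00000038612, chr3:95658788-95663176, plus strand), the short-lived one, had 85.8, 84.5 and 80.4 FPKM in shMettl3_dox cells, against 82.3, 81.7 and 83.1 FPKM in shLuc_dox cells. The shMettl3_dox libraries lay on both sides of the shLuc_dox libraries. Its change was 0.02 (SE 0.0395, 95% interval -0.07 to 0.11, limma adjusted p = 0.756), the narrowest interval among the 7, on 4779 to 7393 reads per library.

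Bcl2l1 (ENSMUSG00000007659, chr2:152780668-152831728, minus strand), whose product BCL-XL guards the outer membrane, had 28.1, 26.8 and 25.6 FPKM in shMettl3_dox cells, against 21.9, 24.0 and 20.5 FPKM in shLuc_dox cells. The groups did not overlap. Bcl2l1 rose by 0.27 (SE 0.0651, 95% interval 0.12 to 0.42, limma adjusted p = 0.0221), again 1.21-fold in FPKM, and edgeR gave 0.27 (adjusted p = 0.00370). The call was lost without shMettl3_dox replicate 1 (adjusted p = 0.0750) or 2 (0.0578), and without shLuc_dox replicate 1 (0.0713) or 3 (0.0630).

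Bcl2 (ENSMUSG00000057329, chr1:106538178-106714274, minus strand), the founder of the family, had 2.33, 2.31 and 2.20 FPKM in shMettl3_dox cells, against 1.68, 1.72 and 1.81 FPKM in shLuc_dox cells. The 3 shMettl3_dox libraries were all higher than the 3 shLuc_dox libraries, at a level near the low end of the genes tested. Bcl2 rose by 0.26 (SE 0.0801, 95% interval 0.07 to 0.45, limma adjusted p = 0.0493), which is 1.31-fold in FPKM. Adding 1 FPKM shrinks the change of a gene this low, and edgeR on its 279 to 539 reads gave 0.39 (adjusted p = 0.00605). The limma call lay at the threshold, and leaving out any 1 of the 6 libraries ended it, with adjusted p of 0.0678 to 0.138.

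Bcl2l2 (ENSMUSG00000089682, chr14:54883377-54888234, plus strand), which encodes BCL-W, had 6.74, 7.14 and 6.54 FPKM in shMettl3_dox cells, against 7.45, 7.19 and 6.90 FPKM in shLuc_dox cells. The groups overlapped through 1 library of each. Its change was -0.07 (SE 0.0543, 95% interval -0.20 to 0.06, limma adjusted p = 0.396).

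**Figure D2:**
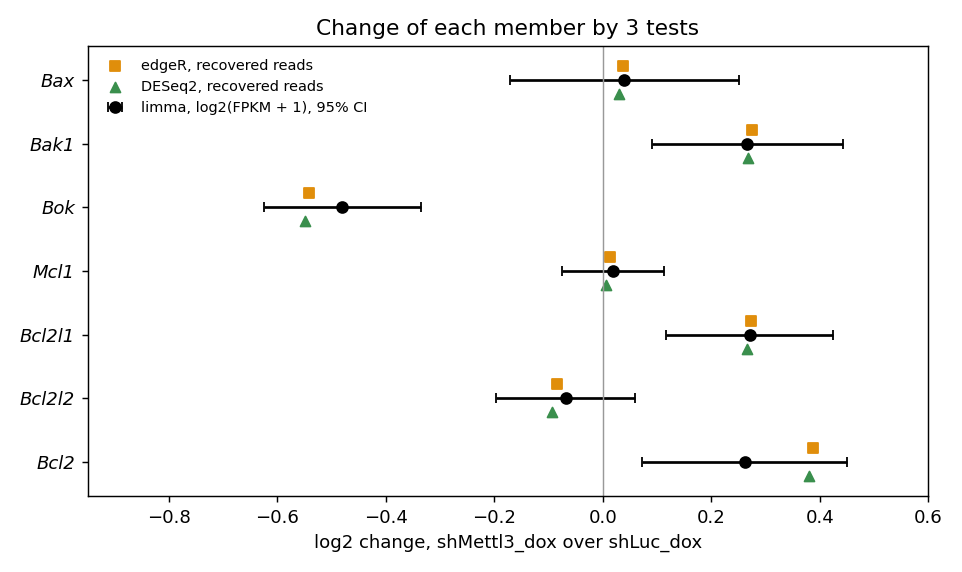
Log2 change (shMettl3_dox over shLuc_dox) of each gene by 3 tests, with the limma 95% interval as a bar. The edgeR and DESeq2 points lie inside the limma interval for each gene, and the intervals of Bax, Mcl1 and Bcl2l2 cross 0.

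Replicate 3 of shMettl3_dox was the lowest of its group for 7 of the 7 genes, and for 38.8% of all tested genes. In that library mitochondrially encoded genes took 6.83% of the summed FPKM, against 4.68% to 5.57% in the others. It also stood apart on the second principal component of all tested genes, at -18.4 against -4.28 to 13.4 in the other libraries. Its part in the results was not tested beyond leaving it out. Without it 1 of the 7 genes was called lower and 2 higher, and the changes were -0.44 for Bok (limma adjusted p = 0.00430), 0.32 for Bak1 (0.0247), 0.30 for Bcl2l1 (0.0221), 0.28 for Bcl2 (0.0678) and 0.05 for Mcl1 (0.310). In shLuc_dox no library was lowest throughout: its replicate 3 was the lowest for Bax, Bok, Bcl2l1 and Bcl2l2 and the highest for Bak1, Mcl1 and Bcl2.

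**Figure D3:**
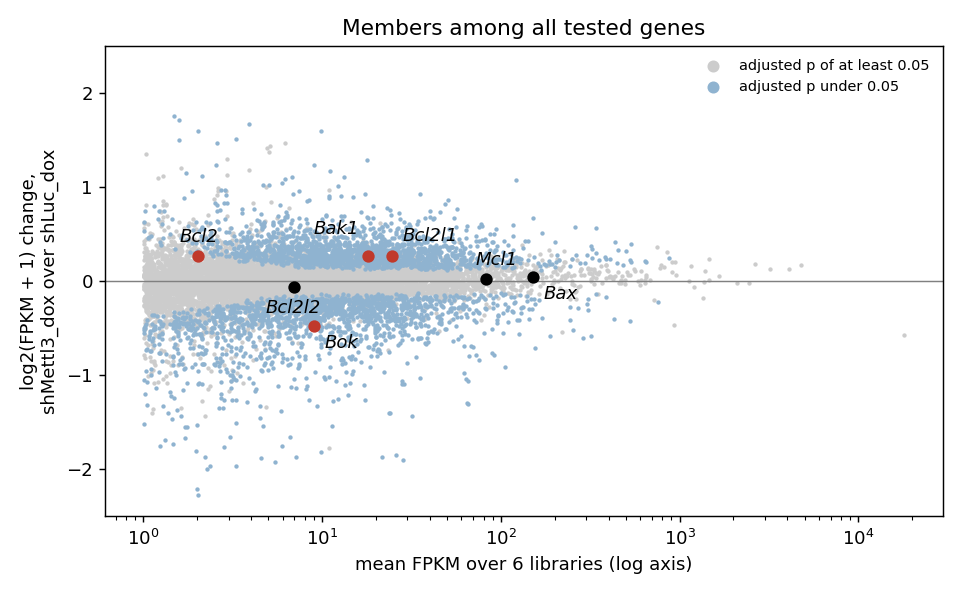
Change on the log2(FPKM + 1) scale against mean FPKM (log axis) for the 12098 genes tested; blue points passed an adjusted p of 0.05 and grey points did not, and the named genes are red where they passed and black where they did not. Bok lies among the falling genes of middle level, and Bax and Mcl1 lie near 0 at the high end.

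The makeup of each family followed from these levels and is given as a description with no test. Of the summed FPKM of the effectors, Bax made up 84.9 ± 0.695% in shMettl3_dox and 84.6 ± 1.36% in shLuc_dox (SD, n = 3 each). Bak1 made up 10.8%, 10.6% and 11.6% in the shMettl3_dox libraries, against 9.25%, 8.17% and 10.6% in the shLuc_dox libraries. Bok made up 3.86%, 4.09% and 4.33% in the shMettl3_dox libraries, against 6.10%, 5.90% and 6.20% in the shLuc_dox libraries. The shares of Bok stood well apart between the groups, those of Bak1 met at their edges, and those of Bax overlapped. The Bak1 to Bok ratio of FPKM was 2.81, 2.60 and 2.68 in shMettl3_dox, against 1.52, 1.38 and 1.71 in shLuc_dox. Both genes contribute to that gap, since Bak1 was higher and Bok lower in shMettl3_dox.

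Of the summed FPKM of the guardians, Mcl1 made up 69.8%, 69.9% and 70.1% in shMettl3_dox, against 72.6%, 71.3% and 74.0% in shLuc_dox. Bcl2l1 made up 22.9%, 22.2% and 22.3% in shMettl3_dox, against 19.3%, 20.9% and 18.3% in shLuc_dox. Mcl1 was thus a smaller share of the guardians in every shMettl3_dox library although its own level overlapped between groups, and Bcl2l1 was a larger share. Bcl2l2 made up 5.70 ± 0.215% in shMettl3_dox and 6.33 ± 0.222% in shLuc_dox, and Bcl2 made up 1.91% on average in shMettl3_dox and 1.53% in shLuc_dox. The ratio of the summed effectors to the summed guardians was 1.52, 1.62 and 1.38 in shMettl3_dox, against 1.58, 1.58 and 1.48 in shLuc_dox, and the groups overlapped. On recovered reads, which are not corrected for length, this ratio averaged 0.657 in shMettl3_dox and 0.679 in shLuc_dox, so whether it lies above or below 1 depends on the scale. The Bax to Bcl2l1 ratio was 5.66, 6.20 and 5.21 in shMettl3_dox, against 6.94, 6.48 and 6.74 in shLuc_dox, with every shMettl3_dox library lower. The Bax to Mcl1 ratio was 1.86, 1.97 and 1.66 in shMettl3_dox, against 1.84, 1.90 and 1.66 in shLuc_dox, and the groups overlapped. These are ratios of mRNA and say nothing of protein.

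**Figure D4:**
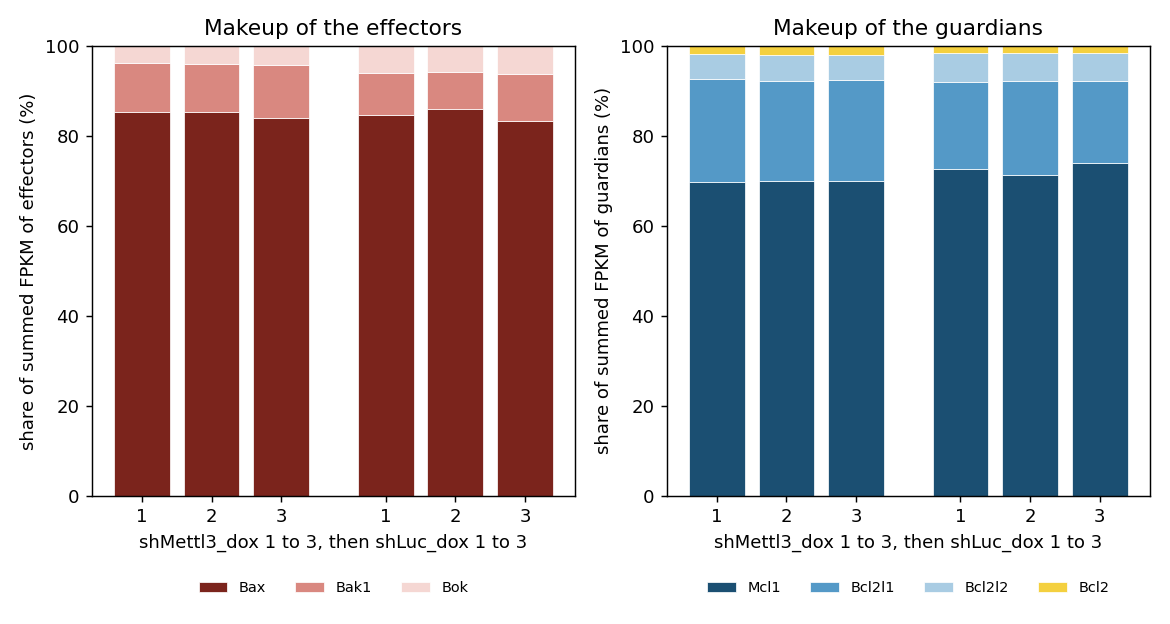
Share of the summed FPKM taken by each effector (left) and each guardian (right), 1 bar per library, with the 3 shMettl3_dox libraries left of the 3 shLuc_dox libraries. Bok takes 3.86% to 4.33% of the effectors in shMettl3_dox and 5.90% to 6.20% in shLuc_dox, and Mcl1 takes 69.8% to 70.1% of the guardians in shMettl3_dox and 71.3% to 74.0% in shLuc_dox.

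The genes around this core were read from 6 lists of 77 genes in all, of which 64 reached the level for testing. Of the 64, 12 fell and 5 rose, with a median change of -0.01, against 13.5% lower and 14.6% higher among all genes. Without shLuc_dox replicate 1 the count lower was 7 and the count higher 2, and without shLuc_dox replicate 2 they were 7 and 1. Without shMettl3_dox replicate 1 or 2 they were 8 and 2, without shLuc_dox replicate 3 they were 8 and 3, and without shMettl3_dox replicate 3 they were 12 and 9.

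BH3-only proteins are the triggers that bind the guardians or the effectors, and 5 of their 8 genes were measured. Of these 2 fell, none rose and 3 did not pass by limma, with a median change of -0.10. At an unadjusted p under 0.05, which 21.4% of all genes met higher and 18.7% lower, Bid was also higher, and by edgeR none was. Bbc3, which encodes PUMA, had 26.0, 26.7 and 22.0 FPKM in shMettl3_dox cells, against 38.8, 39.7 and 37.5 FPKM in shLuc_dox cells, and fell by 0.62 (limma adjusted p = 0.00185). Bcl2l11, which encodes BIM, had 8.19, 8.14 and 8.29 FPKM in shMettl3_dox cells, against 11.8, 11.3 and 10.8 FPKM in shLuc_dox cells, and fell by 0.42 (limma adjusted p = 0.00156). Neither gene's groups overlapped, and both calls held without any 1 library. Groups also did not overlap for Bid, whose shMettl3_dox libraries were all higher, nor for 45.1% of all genes. Pmaip1, which encodes NOXA, a ligand chiefly of MCL1, averaged 15.1 ± 0.536 FPKM in shMettl3_dox and 14.4 ± 0.713 FPKM in shLuc_dox (SD, n = 3 each), a difference of 0.06 on the log2(FPKM + 1) scale (limma adjusted p = 0.407). Bid, whose product is cleaved by caspases in the death receptor pathway, averaged 4.93 ± 0.302 FPKM in shMettl3_dox and 4.31 ± 0.179 FPKM in shLuc_dox (limma adjusted p = 0.108). Bad, whose product is controlled by phosphorylation, ranged from 12.4 to 14.2 FPKM in shMettl3_dox and from 13.3 to 14.7 FPKM in shLuc_dox (limma adjusted p = 0.291). Bik, Bmf and Hrk were under 1 FPKM in every library.

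Of 10 other BCL2-related genes 4 were measured, and 1 fell by limma, with a median change of -0.02. Among all genes limma called 13.5% lower and 14.6% higher. Bnip3, a mitophagy receptor of the outer membrane, averaged 6.94 FPKM in shMettl3_dox and 9.30 FPKM in shLuc_dox, a fall of 0.38 (limma adjusted p = 0.00475) that held without any 1 library. Bcl2a1a, Bcl2a1b and Bcl2a1d, near-identical copies of a further guardian, were listed at 0 in all 6 libraries. They are not distinguished well by short reads.

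Of 12 genes listed as partners at the mitochondrial membranes, 2 rose and none fell by limma. Their median change was 0.06, and the counts were the same by edgeR. At an unadjusted p under 0.05, 3 were higher (21.4% of all genes) and none lower (18.7%). Vdac2, a porin that holds BAK1 in the membrane, averaged 37.5 FPKM in shMettl3_dox and 33.0 FPKM in shLuc_dox and rose by 0.18 (limma adjusted p = 0.0280). Mfn2, a fusion factor of mitochondria, averaged 15.5 FPKM in shMettl3_dox and 13.0 FPKM in shLuc_dox and rose by 0.24 (limma adjusted p = 0.0131). The count higher was 0 without shLuc_dox replicate 2, 1 without shLuc_dox replicate 1 or 3 or shMettl3_dox replicate 2, and 4 without shMettl3_dox replicate 3.

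Of 15 genes for turnover of MCL1 and its relatives 13 were measured, and 2 fell and 1 rose by limma, with a median change of -0.09. By edgeR and by DESeq2 4 were lower and 1 higher. Of all genes edgeR called 16.3% lower and 16.9% higher, and DESeq2 16.5% lower and 15.6% higher. At an unadjusted p under 0.05 by limma 4 were lower and 1 higher, against 18.7% and 21.4% of all genes. The further genes lower by edgeR, named after their values were seen, were Gsk3b (adjusted p = 0.0157) and Rnf144b (0.0327), whose limma adjusted p was 0.0598 and 0.0577. Fbxw7, a ubiquitin ligase subunit for MCL1, averaged 6.93 FPKM in shMettl3_dox and 9.78 FPKM in shLuc_dox and fell by 0.44 (limma adjusted p = 0.00107). March5, a ligase of the mitochondrial outer membrane, averaged 73.4 FPKM in shMettl3_dox and 81.2 FPKM in shLuc_dox and fell by 0.15 (limma adjusted p = 0.0438). Ube2j2, a ubiquitin-conjugating enzyme of the endoplasmic reticulum, averaged 16.0 FPKM in shMettl3_dox and 13.1 FPKM in shLuc_dox and rose by 0.27 (limma adjusted p = 0.0248). The Fbxw7 call held without any 1 library. That of March5 held only without shMettl3_dox replicate 3, and that of Ube2j2 only without shMettl3_dox replicate 3 or shLuc_dox replicate 2.

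Of 13 released factors and parts of the apoptosome 2 fell and none rose by limma, with a median change of -0.05. At an unadjusted p under 0.05 by limma, 3 of the 13 were higher and 3 lower, against 21.4% and 18.7% of all genes. By edgeR 2 of the 13 were lower and 2 higher, against 16.3% lower and 16.9% higher of all genes. The 2 higher were Htra2 (edgeR adjusted p = 0.00605) and Birc3 (0.0182), which are named after their values were seen. Apaf1, the scaffold of the apoptosome, averaged 15.8 FPKM in shMettl3_dox and 24.3 FPKM in shLuc_dox and fell by 0.59 (limma adjusted p = 0.000481). The Apaf1 call held without any 1 library.

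Of 19 modulators of BAX and BCL2 17 were measured, and 5 fell and 2 rose by limma, with a median change of 0.01. Limma called 13.5% of all genes lower and 14.6% higher. Those that fell were Bcap31 (-0.23, limma adjusted p = 0.00683), Becn1 (-0.21, 0.0315), Itpr3 (-0.19, 0.0329), Ier3 (-0.28, 0.0400) and Bag6 (-0.17, 0.0402). Bcap31 and the calcium channel gene Itpr3 encode proteins of the endoplasmic reticulum, and Becn1 encodes an autophagy protein bound by BCL2. Those that rose were Rtn4 (0.17, limma adjusted p = 0.0198) and the mitochondrial chaperone gene Hspa9 (0.16, 0.0234). Leaving out any 1 library reduced the 5 lower to between 1 and 3, and of these 5 only the Bcap31 call held in all 6 omissions. The count higher was 0 without shMettl3_dox replicate 1 or 2 or shLuc_dox replicate 2, 1 without shLuc_dox replicate 1, and 3 without shMettl3_dox replicate 3.

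**Figure D5:**
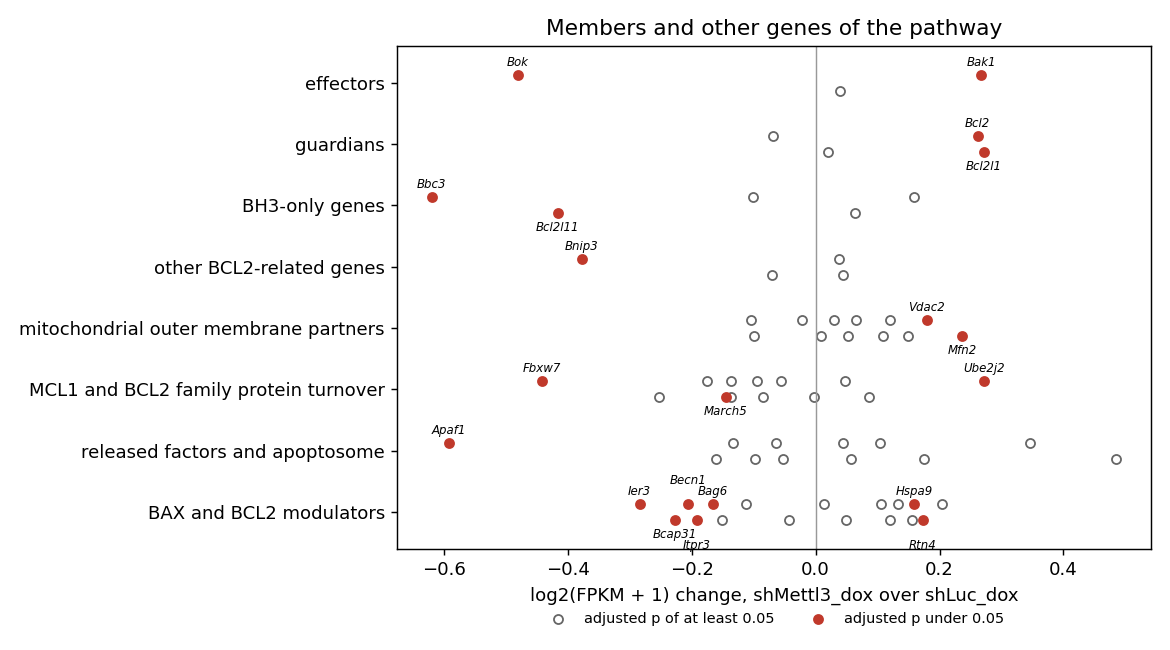
Change on the log2(FPKM + 1) scale of the measured genes reported here, by list, with genes whose adjusted p was under 0.05 filled in red and named. Bbc3, Apaf1, Bok, Fbxw7 and Bcl2l11 lie farthest to the left, and the effectors and guardians that rose lie between 0.26 and 0.27.

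The genes whose levels ran most like each changed gene over the 6 libraries were sought among 10656 protein-coding genes by Pearson's r of log2(FPKM + 1). The 6 libraries differ in depth and fall into 2 groups, so a gene that differs between the groups can score high, and the values are a description. Nearest to Bok were Ttf1 (r = 0.998), Nat9 (0.998) and Khdc4 (0.997). Nearest to Bak1 were Ndufaf3 (r = 0.998), Lrrc47 (0.997) and Taf5 (0.995). Nearest to Bcl2l1 were Ccdc59 (r = 0.994), Dusp8 (0.994) and Zfp956 (0.988), and nearest to Bcl2 were Pomt1 (r = 0.999), Glb1 (0.997) and Socs6 (0.997). No gene appeared beside more than 1 of the 4.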

How the data were processed

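RNA-seq of 6 libraries (shMettl3_dox and shLuc_dox, 3 each) was read from a table of FPKM that the authors deposited, with reads scaled to exon length and library size. The authors deposited a second table of 1960 genes lower in shMettl3_dox. It holds, per the file headers, the authors' normalized read counts (a signal divided by library size), log2 fold changes and p-values from a test that goes unnamed. Tools in the submitters' processing notes are featureCounts 1.5.3, STAR, fastp and DESeq2, and the build is mm10. The strand setting of the counting is not given in the sources.

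Of 54532 genes, the 12098 averaging 1 FPKM or more were fitted on log2(FPKM + 1) in R 4.3.3, using limma 3.58.1 and an intensity trend. Tests were two-sided, adjusted by Benjamini-Hochberg over these genes, and called at an adjusted p under 0.05. Changes are shMettl3_dox over shLuc_dox on that scale, which understates the change of low genes. Whole reads were recovered from FPKM with GENCODE M21 exon lengths, within 0.01 of a read, in 96.8% of 26328 genes that were above 0. For the other 853 genes another whole-number length served, in 299 of them taken as a multiple of the smallest. Reads recovered from the second table were whole for 100% of its genes, and for 98.5% both tables gave equal reads. A count test is not the main one because the deposited unit is FPKM, so DESeq2 1.42.0 and the quasi-likelihood test of edgeR 4.0.16, both on these reads, were alternatives, calling 32.1% and 33.3% of genes.

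Other alternatives were the pseudocount, the filter, the scaling, the trend, the replicate number as a block and leaving out each library. The script was tested on simulated data. The genes and lists were chosen with earlier results of these data known. Named genes are the 7, Mettl3, every listed gene that passed (at most 5 in a direction) with every measured BH3-only gene, and the 3 protein-coding genes most correlated with each changed gene; markers and opposite-strand genes are given as checks. A gene that the rule names is counted in its list but not reported here. Coordinates are 1-based on GRCm38. Tables were handled with pandas 2.3.3, scipy 1.17.1 and numpy 2.4.6 under Python 3.11.15, and figures drawn with matplotlib 3.10.9. No outlier test was run on these groups of 3.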

Additional observations from a re-analysis of the deposited data

How the results depend on the processing

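The fall of Bok passed under all 10 other settings and all 6 omissions of a library, and Mettl3 likewise, while Bax, Mcl1 and Bcl2l2 passed in none. The count of members higher (3) was 0 with no filter on low values, 1 with a filter at 0.1 FPKM and 0 to 2 without 1 library. With no filter the adjusted p, for unchanged log2 changes, was 0.0913 for Bak1 (0.27), 0.0558 for Bcl2l1 (0.27) and 0.139 for Bcl2 (0.26), and with the filter at 0.1 FPKM it was 0.0565 for Bak1 (0.27) and 0.0560 for Bcl2 (0.26). Both settings test more genes, over which the trend is fitted and p is adjusted, and the cause of the lost calls was not tested. Without the trend Bak1 (0.27) had an adjusted p of 0.0545, and with median-ratio scaling Bcl2 (0.25) had 0.0564; the cause was not tested. Without 1 library the changes were 0.20 to 0.32 for Bak1, 0.25 to 0.28 for Bcl2 and 0.22 to 0.33 for Bcl2l1. Over all genes, 1060 to 1646 were lower (1633 with all libraries) and 1013 to 1854 higher (1763) without 1 library, the fewest without shLuc_dox replicate 2. The pathway lists held 7 lower and 3 higher genes with no filter, 8 higher with edgeR, and 7 to 12 lower and 1 to 9 higher without 1 library. From recovered reads, which are not corrected for length, the shares of the summed reads were 79.7% in shMettl3_dox and 79.9% in shLuc_dox for Bax, 62.1% in shMettl3_dox and 65.4% in shLuc_dox for Mcl1, and 26.8% in shMettl3_dox and 23.5% in shLuc_dox for Bcl2l1. The ratio of effectors to guardians was then 0.657 in shMettl3_dox and 0.679 in shLuc_dox.

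The replicate numbers showed no sign of pairing the libraries: deviations of same-numbered libraries from their group means correlated at 0.03, -0.01 and 0.06. With 3 libraries a group this cannot exclude pairing. With the replicate block 1525 genes were lower and 1676 higher. The count of members higher was 1, Bcl2l1 (adjusted p = 0.0220), while Bak1 (0.27) had 0.0746, Bcl2 (0.26) 0.0964 and Bok 0.00683.

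Depth limits the low genes most: Bcl2 rests on 279 to 539 reads per library and Bok on 255 to 395, against 3668 to 6330 for Bax. With 3 libraries a group and 1 hairpin, the tests speak only for these libraries.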
